A study of Mus musculus with 8 samples.

Results

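The nuclear factor I (NFI) transcription factors are encoded by 4 mouse genes, Nfia, Nfib, Nfic and Nfix. Their rows were taken by gene symbol from the total RNA table, where all 4 are among 24420 rows, and from the polysomal RNA table, where 3 of them, Nfia, Nfic and Nfix, are among 5804 rows and Nfib has no row. The libraries, labelled as brain and described as neural tube, were from E11.5 mouse embryos, either wildtype (WT) or homozygous for knockout alleles of both Lin28 genes (Lin28a-/-;b-/-, here dKO). Each genotype was sequenced as total RNA and as polysomal RNA, the RNA bound by several ribosomes at once, with 2 libraries in each of the 4 groups. The title of the series asks how Lin28 acts on protein synthesis, neural progenitor upkeep and brain development. No source used here says how the alleles were made or whether replicates are separate embryos, so a p-value here covers the spread between libraries alone, and that spread may be technical.

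NFI proteins bind DNA as dimers at a palindrome, TTGGC and GCCAA with 5 bases between them, and can also bind either arm of it. In the developing brain and spinal cord they come on late in progenitors, where Nfia and Nfib take part in the switch from making neurons to making glia and Nfix takes part in the maturation of radial glia and the timing of differentiation. Nfia, Nfib and Nfix also mark late-born neurons of the neural tube. Nfic is the member best known from tooth root formation. Lin28a and Lin28b encode RNA-binding proteins of early progenitors that block the maturation of let-7 microRNAs.

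The family was chosen with its genotype differences in view, so the dKO and WT values of the 4 genes are given as a description with no test. Total RNA columns summed to between 15060560 and 15768767 counts. The listed polysomal genes summed to 14874143 and 15414712 counts in WT but only to 3740980 and 5164982 in dKO, and these are sums over part of a library, not its depth. The dKO polysomal pair differed most between replicates, with a chi-square of 24.8 per degree of freedom against 2.88 to 3.19 in the other groups. Lin28a stood at 72.2 and 73.3 CPM (counts scaled to library size) in WT total RNA and at 6.55 and 7.73 CPM in dKO, and Lin28b at 123 and 128 against 48.0 and 55.1 CPM, so both targeted genes were lower in every library labelled dKO.

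In the GENCODE annotation of GRCm38, Nfia lies on the plus strand of chromosome 4 from 97772734 to 98118874 and Nfib spans 82290173 to 82705750 on its minus strand. Nfic spans 81396186 to 81455635 of chromosome 10 and Nfix 84699876 to 84800344 of chromosome 8, both read from the minus strand. All 4 are protein-coding genes with 7 to 12 annotated transcripts. The family splits in base composition: the longest transcripts of Nfia and Nfib are 42.7% and 43.3% GC, those of Nfic and Nfix 57.4% and 57.1%.

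Because the removed proteins act on let-7, the 3′ untranslated regions of the family were searched for CTACCTC, the sense-strand complement of bases 2 to 8 of let-7. Of 10 mature mouse let-7 sequences in RefSeq (GRCm38.p6), 9 share that seed, which is in capitals here in let-7a. The motif was found 1 time in the 7639 bases of the Nfia region and not in the 6621 bases of Nfib, 4868 of Nfic or 3951 of Nfix, taking the longest annotated region of each gene. Over 21022 genes, 9.02% held at least 1 match, a share that takes no account of length. Per kilobase, Nfia had 0.131 matches against 0.07 over the regions of all these genes. With 1 match, these rates cannot be told apart. The Nfia match lies at chr4:98117925-98117946 on the plus strand, in the 3′ untranslated region, with the match in capitals. A match is a string of letters and does not show that let-7 acts there.
let-7a-5p: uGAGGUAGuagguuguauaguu
Nfia site: gagaagtgCTACCTCtgatcta

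Since all 4 genes had higher total RNA levels in dKO, their start regions (250 bases before to 50 after a RefSeq start, GRCm38.p6) were searched for the NFI half-site, TTGGC or its complement GCCAA, on both strands. RefSeq's table holds 1 such region for Nfia, 1 for Nfic and 4 for Nfix, with no entry for Nfib. No half-site was found in the Nfia or Nfic region or at the most upstream Nfix start. The next 2 Nfix starts hold 1 half-site each, and the most downstream one holds 2, placed 5 bases before and 3 bases after the start. Half-sites are common, being present in 46.7% of 32851 such regions, while the full palindrome is in 0.0365% of them and in none of these 6. The Nfia start lies upstream of the GENCODE gene given above, and counts per gene do not show which start was used. Of the 4 Nfix starts, the one shown here holds the most half-sites. The regions of Nfia at chr4:97581693-97581992 (plus strand), Nfic at chr10:81427124-81427423 (minus strand) and the most downstream Nfix start at chr8:84772826-84773125 (minus strand) are shown 5′ to 3′ with half-sites in capitals.
Nfia: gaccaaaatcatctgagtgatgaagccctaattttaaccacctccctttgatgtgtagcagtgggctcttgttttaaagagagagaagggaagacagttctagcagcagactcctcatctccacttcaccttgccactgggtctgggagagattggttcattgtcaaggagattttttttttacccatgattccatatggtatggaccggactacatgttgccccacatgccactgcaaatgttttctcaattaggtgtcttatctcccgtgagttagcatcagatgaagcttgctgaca
Nfic: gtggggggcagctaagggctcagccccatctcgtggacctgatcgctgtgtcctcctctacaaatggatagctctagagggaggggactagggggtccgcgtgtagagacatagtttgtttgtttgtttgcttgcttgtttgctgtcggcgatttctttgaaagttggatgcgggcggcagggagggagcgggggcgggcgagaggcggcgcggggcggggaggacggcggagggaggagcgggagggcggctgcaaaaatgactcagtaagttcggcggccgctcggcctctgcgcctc
Nfix: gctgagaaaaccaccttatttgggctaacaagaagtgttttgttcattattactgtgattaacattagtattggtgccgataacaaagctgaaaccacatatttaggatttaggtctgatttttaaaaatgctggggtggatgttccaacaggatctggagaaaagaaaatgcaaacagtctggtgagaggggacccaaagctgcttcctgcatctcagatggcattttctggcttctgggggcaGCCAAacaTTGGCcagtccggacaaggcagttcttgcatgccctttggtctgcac

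In total RNA, every NFI gene was higher in dKO than in WT. Nfia stood at 91.7 and 95.6 CPM in WT and at 192 and 187 CPM in dKO. Nfib stood at 121 and 130 CPM in WT and at 242 and 240 CPM in dKO. Replicates lay close together, and the difference was 2.03-fold for Nfia (log2 fold change 1.02 ± 0.05, SE) and 1.92-fold for Nfib (0.94 ± 0.05). Nfix had fewer reads, 258 and 209 counts in WT against 657 and 625 in dKO, or 16.4 and 13.8 against 41.8 and 40.3 CPM. This was the widest gap in the family, a 2.71-fold difference (log2 fold change 1.44 ± 0.12). Nfic had the smallest gap, 19.4 and 17.5 CPM in WT against 30.7 and 28.9 CPM in dKO (log2 fold change 0.69 ± 0.12). For each of the 4 genes both dKO libraries lay above both WT libraries. The same held for 31.0% of the 14594 genes tested, and nothing is read from the family's count because its members were chosen on this contrast. Measured by log2 fold change, 0.637% of tested genes lay above Nfix, 1.78% above Nfia, 2.15% above Nfib and 4.31% above Nfic. In bulk tissue, more cells that express a gene and more of its RNA per cell cannot be told apart.

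**Figure D1:**
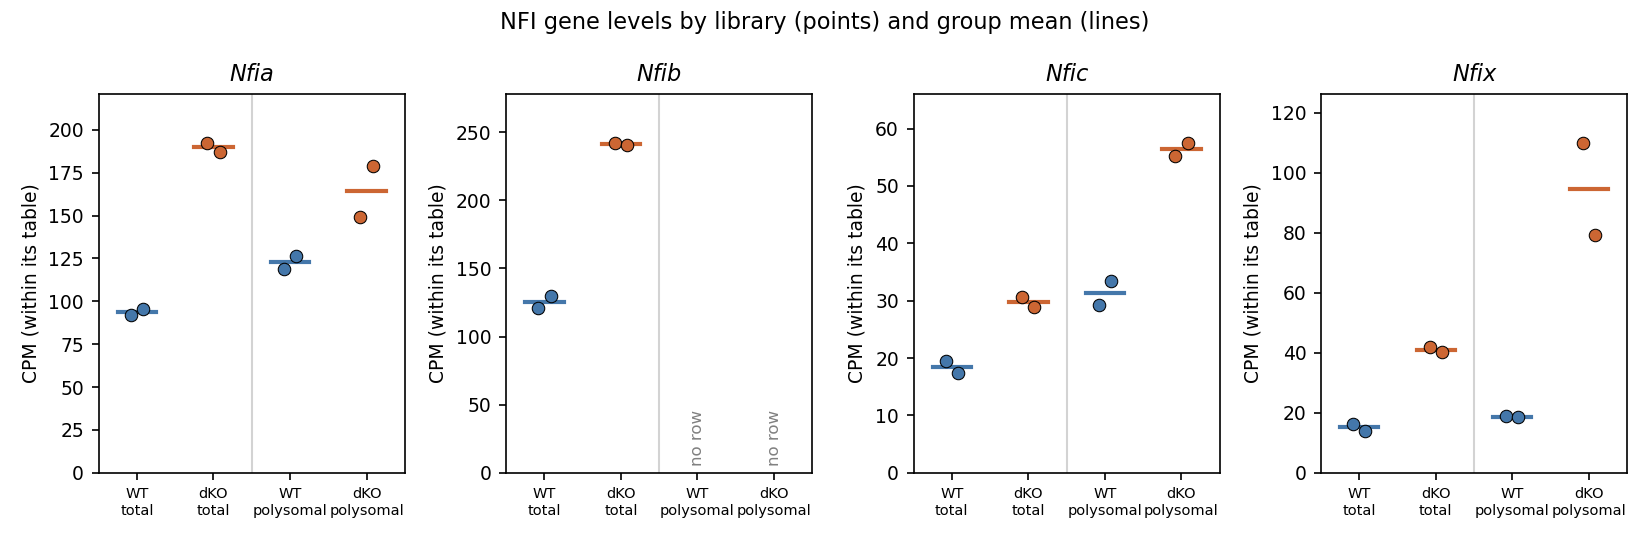
Levels of Nfia, Nfib, Nfic and Nfix in CPM (y axis, from 0, a separate range for each gene) in the 4 groups (x axis); points are libraries and lines are means of 2. In both tables the dKO points lie above the WT points for every gene with a row; the 2 tables were scaled separately, so levels are not compared across the grey line.

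Scaled by length, the family was led by Nfia and Nfib. Per kilobase of annotated exonic bases, WT levels were 8.42 and 8.77 CPM for Nfia, 8.11 and 8.66 for Nfib, 2.93 and 2.64 for Nfic and 2.24 and 1.88 for Nfix. Nfia and Nfib overlapped, and Nfic lay above Nfix in both WT libraries. In dKO the levels per kilobase were 17.7 and 17.2 CPM for Nfia, 16.2 and 16.1 for Nfib, 4.63 and 4.35 for Nfic and 5.69 and 5.48 for Nfix, so the order of the last pair was turned. As a share of the summed family level, Nfix went from 10.3% and 8.57% in WT to 12.9% and 12.7% in dKO, and Nfic from 13.5% and 12% to 10.5% and 10.1%. Nfia took 38.8% to 40.0% in all 4 libraries. Summed over the family, the level per kilobase was 21.7 and 22.0 CPM in WT and 44.2 and 43.1 CPM in dKO. With the longest transcript as the length, Nfib led alone (13.3 and 14.2 CPM per kilobase in WT against 9.63 and 10.03 for Nfia), and the WT values of Nfic and Nfix overlapped (3.12 and 2.80 against 3.00 and 2.53).

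**Figure D2:**
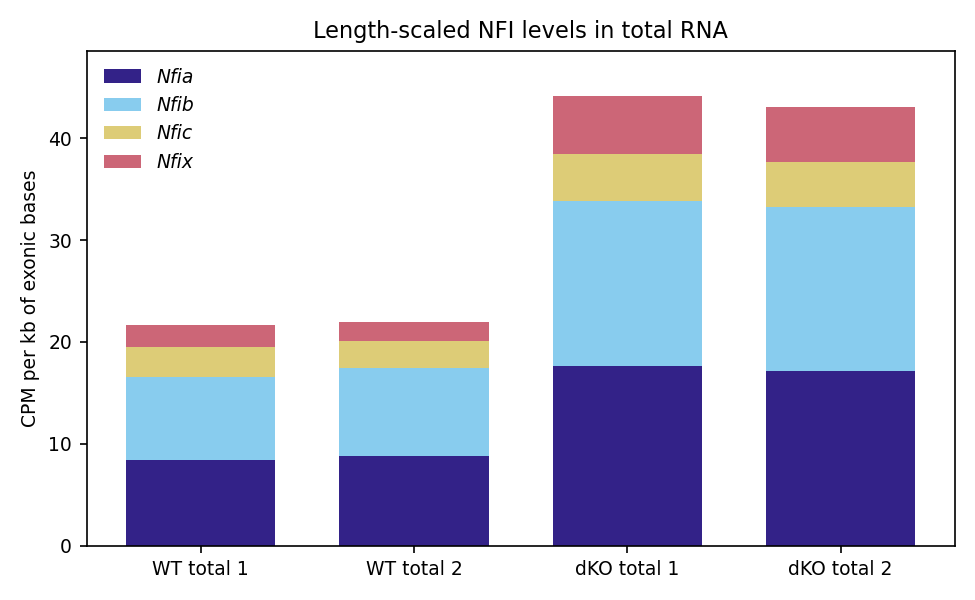
Stacked length-scaled levels of the NFI genes (y axis, CPM per kilobase of exonic bases) in the 4 total RNA libraries (x axis). The summed height is 21.7 and 22.0 in WT and 44.2 and 43.1 in dKO, with the Nfix segment above the Nfic segment in size only in the dKO bars.

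The polysomal table lists hardly any gene with a small genotype difference: of 5618 genes averaging 5 CPM or more, those nearest 0 on either side had log2 fold changes of -0.12 and 0.21. The 3 NFI genes are among genes listed that way, and their scaling rests on listed genes. Nfix was 18.9 and 18.5 CPM in WT polysomal RNA and 110 and 79.3 CPM in dKO, a log2 fold change of 2.33 ± 0.19. Its raw counts were higher in dKO (374 and 403 against 298 and 302) although the dKO libraries summed to far less. Nfic was 29.2 and 33.4 CPM in WT and 55.3 and 57.5 CPM in dKO (log2 fold change 0.85 ± 0.15). Nfia was 119 and 126 CPM in WT and 149 and 179 CPM in dKO, the smallest polysomal difference of the 3 (0.42 ± 0.11). All 3 had both dKO libraries above both WT libraries, as had 47.2% of the 5777 genes tested. By the test 47.2% of genes were higher and 52.5% lower, from which nothing is read, and the median log2 fold change over those genes was -0.35. The Nfia value leaned on single libraries, at 0.25 without dKO polysomal replicate 2 and 0.54 without replicate 1.

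Polysomal differences followed the GC content of the transcript (Spearman rho = 0.764 across 5572 genes, which share the same 4 libraries), whereas in total RNA rho was -0.0876 across 14039 genes. Nfia is GC-poor and Nfic and Nfix are GC-rich, so the 3 genes sit at different places on that trend. With each library adjusted for GC by a smooth curve, an alternative chosen after seeing the data, the polysomal log2 fold change was 1.38 ± 0.09 for Nfia, 1.46 ± 0.16 for Nfix and -0.04 ± 0.15 for Nfic. The adjusted values of Nfia and Nfix lay nearer to their total RNA values (1.02 and 1.44) than the unadjusted ones did, while that of Nfic turned to about 0. The curve also shifted all genes together, moving the median polysomal log2 fold change from -0.35 to 0.04. An adjusted value thus holds this common shift besides the GC part. Cell type markers with a polysomal row differed between genotypes as nearly every listed gene does, so that they differ is no result. Their values are given as a description. The sums hold listed markers alone and leave out, among others, the neuron markers Stmn2, Elavl3 and Nefl. The 7 listed progenitor markers summed to 4846 and 4789 CPM in WT and 6957 and 6654 in dKO (5 rose and 2 fell), and the 4 listed neuron markers to 4150 and 4177 against 2502 and 2638 (3 fell). Of 6 listed mesenchyme markers 4 rose and 2 fell: the collagen genes Col1a1 and Col3a1 were at 2.26 ± 0.11 and 1.58 ± 0.10, Prrx1 and Lum at -1.63 ± 0.14 and -1.82 ± 0.15, and the sum went from 505 and 508 to 1283 and 1062 CPM. The 5 erythroid markers fell (8797 and 8669 against 4885 and 4919 CPM), 1 of 2 endothelial markers rose and the other fell (74.6 and 70.8 against 173 and 127), and Ttr, the choroid plexus marker with a row, rose (16.0 and 16.5 against 115 and 129). Nearly every gene of that table passed the test (99.7%), and the part of these markers in the NFI values was not tested.

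**Figure D3:**
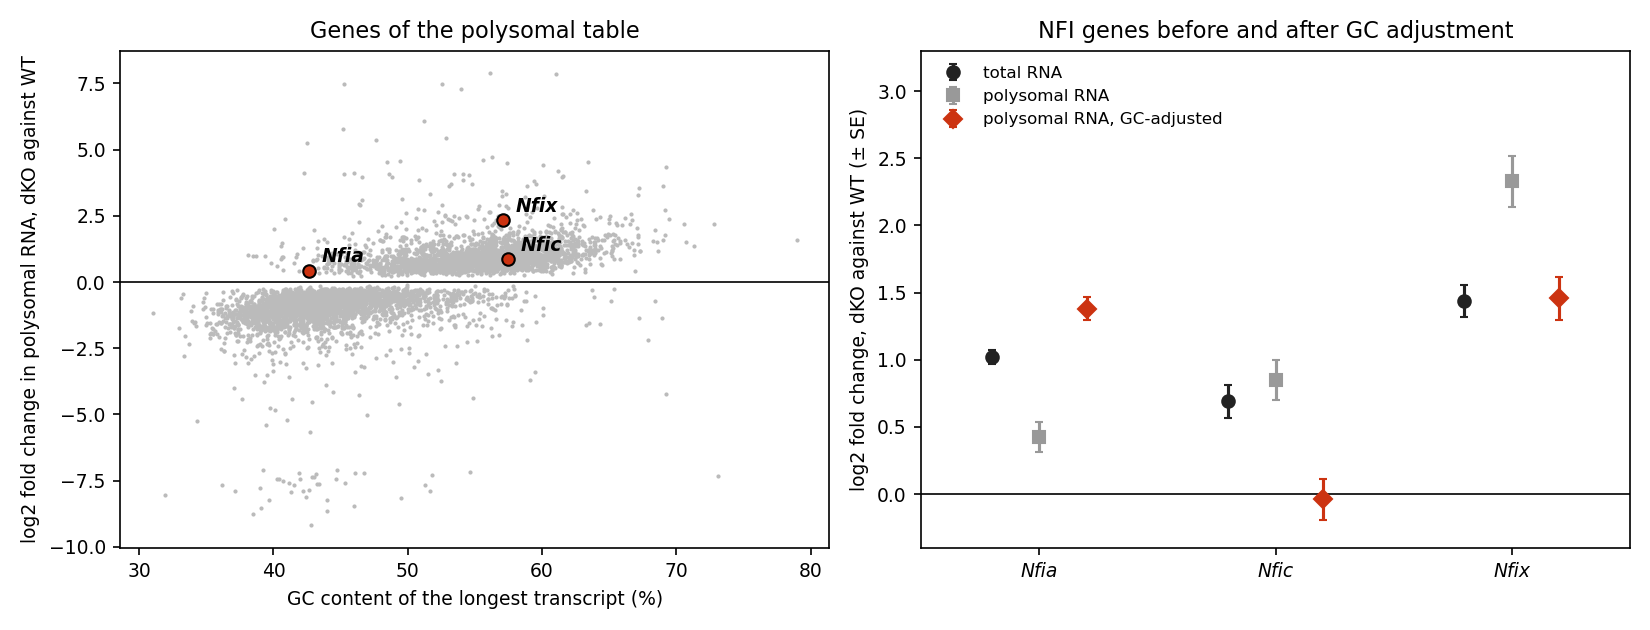
Left, log2 fold change in polysomal RNA (y axis) against GC content of the longest transcript in percent (x axis) for 5572 genes (grey), with the 3 listed NFI genes in red; a band around 0 is empty. Right, log2 fold change ± SE (y axis) of the 3 genes in total RNA, polysomal RNA and GC-adjusted polysomal RNA, the last at 1.38 for Nfia, -0.04 for Nfic and 1.46 for Nfix.

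Polysomal and total RNA were then set side by side on the 5790 genes that both tables list. The WT values are part of the genotype differences that were in view when the family was chosen. Hardly any gene without a polysomal genotype difference is listed. The tests between WT fractions are therefore not independent of that choice, and they describe the 3 genes and the listed genes only. In WT, Nfia had 120 and 127 CPM in polysomal against 137 and 143 CPM in total RNA, Nfic 29.4 and 33.6 against 29.1 and 26.2, and Nfix 19.1 and 18.6 against 24.6 and 20.8. The polysomal to total differences were small: -0.19 ± 0.08 on the log2 scale for Nfia (adjusted p = 0.196), 0.19 ± 0.13 for Nfic (adjusted p = 0.401) and -0.27 ± 0.16 for Nfix (adjusted p = 0.342, edgeR quasi-likelihood test). None of the 3 passed the threshold of 0.05, which 11.9% of 5768 genes did (3.47% higher and 8.48% lower), nor did they with DESeq2 (adjusted p = 0.252, 0.491 and 0.456). That background itself moved from 689 genes to between 178 and 1990 when any 1 of the 8 libraries was left out. The Nfia call changed when either dKO polysomal library was left out: without dKO polysomal replicate 1 its adjusted p was 0.00846 and without replicate 2 it was 0.00664, with the difference at -0.18 and -0.19.

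In dKO, polysomal RNA was lower than total RNA for Nfia, 152 and 184 against 287 and 279 CPM over shared genes (log2 difference -0.74 ± 0.09). Nfix went the other way, 112 and 81.7 in polysomal against 62.4 and 60.0 CPM in total RNA (0.65 ± 0.15). Nfic had 56.4 and 59.2 against 45.8 and 43.0 CPM (0.38 ± 0.13). The genotype difference was therefore larger on polysomes than in total RNA for Nfix, by 0.92 ± 0.22, smaller for Nfia (polysomal minus total -0.55 ± 0.12), while for Nfic this quantity was 0.20 ± 0.18, about the size of its error. No test is given for these, since they contain the genotype contrast. By polysomal minus total, 23.4% of the 5768 genes lay above Nfix, 46.45% above Nfic and 62.6% above Nfia. Over all 5768 genes, 90.0% differed between fractions in dKO (43.1% higher and 46.9% lower on polysomes) and 89.5% differed in the interaction (43.7% higher and 45.8% lower), and nothing is read from the members beside them. After the GC adjustment the same quantities were 0.03 ± 0.20 for Nfix, 0.34 ± 0.10 for Nfia and -0.71 ± 0.19 for Nfic.

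NFI genes belong to a sequence of transcription factors that successive neurons of the neural tube express, with Onecut factors early, Pou2f2 and Zfhx factors next, and NFI and Neurod factors late. In total RNA all 3 early factors fell in dKO, all 3 late factors outside the NFI family rose, and the middle group moved both ways (14.7% of all tested genes rose and 16.0% fell). Onecut2, the most abundant early factor in counts, fell from 494 ± 6.72 to 230 ± 6.08 CPM (mean ± SD, n = 2; log2 fold change -1.10 ± 0.04, adjusted p = 1.08e-204, edgeR). Onecut1 changed by -1.09 ± 0.13 and Onecut3 by -3.72 ± 0.20. Of the middle group, Pou2f2 fell by 0.64 ± 0.14 on the log2 scale, Zfhx3 rose by 0.47 ± 0.04 and Zfhx4 rose by 0.20 ± 0.04. The Zfhx4 call was lost with a length adjustment (adjusted p = 0.18) and with all 8 libraries in 1 fit (adjusted p = 0.0606). Neurod2 rose by 2.86 ± 0.22 and Neurod6 by 2.80 ± 0.27, from 34 and 35 and from 18 and 31 counts in WT. Tcf4, an E protein that pairs with proneural factors, rose by 0.34 ± 0.04. Next to these, the NFI genes at 0.69 to 1.44 lay between Tcf4 and the Neurod genes. The temporal factors were listed with earlier results on these data known, among them the extremes, Onecut3 and the Neurod genes. The directions and the p-value above therefore describe these genes and are no independent support.

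On polysomes the early factors were lower in dKO too, with log2 fold changes of -0.86 ± 0.15 for Onecut1, -2.45 ± 0.07 for Onecut2 and -3.69 ± 0.41 for Onecut3, while Neurod2 was at 3.20 ± 0.25. Neurod6 and Pou2f2 have no polysomal row. Zfhx3 was at 0.91 ± 0.07, Zfhx4 at -0.53 ± 0.09 and Tcf4 at -0.58 ± 0.09. All 7 of these differences passed the threshold, as did 99.7% of the genes in that table. After the GC adjustment, which also moved the median of all genes from -0.35 to 0.04, Tcf4 was at 0.55 ± 0.05 and Zfhx4 at 0.12 ± 0.06. Neither kept its direction, and the part of the common shift in this was not tested. The same adjustment left Onecut1 at -0.87 ± 0.15 and moved Onecut2 to -1.48 ± 0.10, Onecut3 to -4.70 ± 0.37, Zfhx3 to 0.44 ± 0.07 and Neurod2 to 2.21 ± 0.25, with their signs kept.

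**Figure D4:**
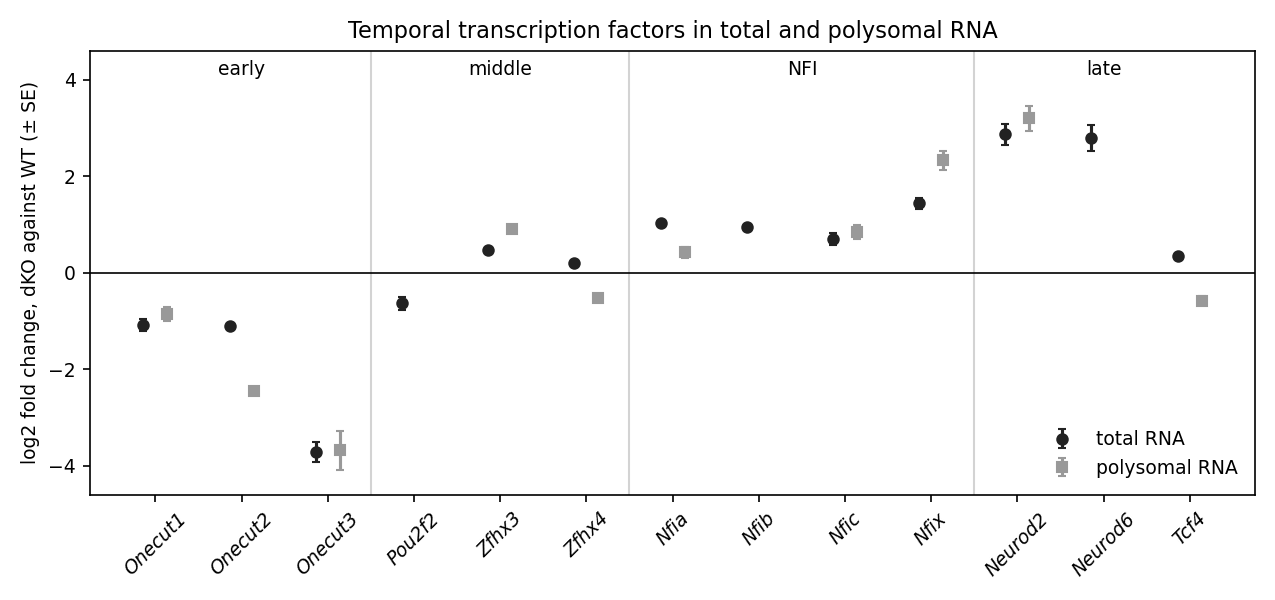
Log2 fold change of dKO against WT (y axis, ± SE) for early, middle, NFI and late temporal factors (x axis) in total RNA (circles) and polysomal RNA (squares); genes without a square have no polysomal row. In total RNA the 3 early factors lie below 0, from -3.72 to -1.09, and the NFI and late factors above it.

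A list of 12 genes that other studies report to depend on NFI factors holds both activated and repressed genes. It was drawn up with earlier results on these data known. Its counts and p-values therefore describe these genes and are no independent support. In total RNA 10 of them were tested, and 5 rose and 2 fell, where 14.7% of all tested genes rose and 16.0% fell. Their median log2 fold change, which pools both kinds, was 0.17 against 0.00 over all tested genes. Apcdd1 and Zcchc24, which are activated by Nfia with Sox9 in spinal cord progenitors, rose by 0.53 ± 0.05 (adjusted p = 3.76e-26, edgeR) and 0.54 ± 0.08 (adjusted p = 3.58e-10). Apcdd1 was 141 and 150 CPM in WT and 216 and 204 CPM in dKO, and Zcchc24 50.3 and 50.6 against 70.6 and 75.5 CPM, with no overlap for either gene. Mmd2, the third gene of that group, was at 0.19 ± 0.17 and did not pass (adjusted p = 0.419). Fabp7, a lipid-binding protein of radial glia with NFI sites in its promoter, rose by 0.24 ± 0.03. Bbx, a gene that Nfix is reported to repress, rose by 0.18 ± 0.07. That call was lost with DESeq2 (adjusted p = 0.114), without WT replicate 1 (0.248) or dKO replicate 2 (0.491), with all 8 libraries in 1 fit (0.242), and with the GC (0.0991) and length (0.261) adjustments. The 2 that fell, named after their values were seen, were Ezh2, the Polycomb methyltransferase that Nfib is reported to repress (-0.18 ± 0.04), and Insc, a spindle orientation gene (-1.78 ± 0.42) with a mean of 2.49 CPM. Hes1 and Sox9, also reported as repressed by NFI factors, were at -0.13 ± 0.09 and -0.04 ± 0.05 and did not pass. For Insc no direction of NFI action is given here, and its fall is not read either way.

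Of 21 regulators of the switch to gliogenesis 2 rose and 3 fell, beside 14.7% and 16.0% of all tested genes, with a median of -0.04. Zbtb20, a zinc finger factor of late progenitors, rose by 0.58 ± 0.14 and the POU factor gene Pou3f2 by 0.25 ± 0.03. Dnmt1, the maintenance DNA methyltransferase, fell by 0.41 ± 0.09 on the log2 scale. Olig2, a factor of motor neuron and oligodendrocyte progenitors, fell by 0.34 ± 0.12, a call lost with DESeq2 (adjusted p = 0.0793) and without WT replicate 1 (0.143) or dKO replicate 1 (0.184). Among 22 genes of radial glia, astrocytes and oligodendrocyte precursors 19 were tested, of which 7 rose and 3 fell, beside the same 14.7% and 16.0% of all tested genes, with a median of 0.24. Hopx, a homeodomain protein of late radial glia, rose from 6.52 ± 0.238 to 17.3 ± 0.481 CPM (2.65-fold), close to the Nfix difference. The glutamate transporter genes Slc1a3 and Slc1a2 rose by 0.58 ± 0.10 and 0.39 ± 0.04, and Sparcl1, a secreted glial protein gene, by 0.44 ± 0.12. The 3 that fell, named after their values were seen, were Pdgfra, a receptor of oligodendrocyte precursors that mesenchyme also expresses (-0.39 ± 0.11), Glul, glutamine synthetase (-0.28 ± 0.05), and Gja1, a gap junction protein (-0.14 ± 0.06). Gfap and S100b, genes of mature astrocytes, had too few counts to be tested. Both glial lists were also drawn up with earlier results on these data known, so their counts and calls are no independent support. The lists share genes: Ezh2 is counted both as NFI-dependent and as a regulator, and Fabp7 both as NFI-dependent and as a glial gene.

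The genes most like each NFI gene were found by the root mean square difference of log2(CPM + 1), each gene centred on the WT mean of its fraction. For Nfib, over the 4 total RNA libraries and 11534 genes, these were Mme (0.0311), Sez6 (0.0471) and Trpm3 (0.0484), whose log2 fold changes in total RNA were 0.97, 0.93 and 1.14. The measure picks genes with a like genotype difference, so the closeness of these values to that of Nfib follows from the choice. For the other NFI genes all 8 libraries and 5592 genes were used. Nfic was nearest to Lrp8 (0.0739), 1810041L15Rik (0.0752) and Tmem163 (0.0825). Nfia had looser neighbours, Ypel3 (0.199), Pid1 (0.202) and Egln3 (0.223), and so had Nfix, with Adgrb2 (0.206), Foxo6 (0.259) and Fbxo44 (0.298). Nfib, with no polysomal row, was not among the genes searched for the other 3.

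Neural markers were abundant in total RNA: 8 progenitor markers summed to 3629 and 3676 CPM in WT and 3174 and 3218 in dKO, and 7 neuron markers to 4303 and 4310 against 4219 and 4228. Of the progenitor markers 1 rose and 4 fell, and of the neuron markers 2 rose and 2 fell (14.7% of all tested genes rose and 16.0% fell). Among other tissues, 8 mesenchyme markers summed to 424 and 400 CPM in WT and 394 and 398 in dKO, and 2 of them fell. The 6 endothelial markers summed to 156 and 158 against 160 and 167 CPM, and 3 neural crest markers to 160 and 165 against 170 and 156 CPM, with overlap between genotypes in the latter. Erythroid markers were lower in dKO (5 of 5 fell, 4320 and 4390 against 2631 and 2633 CPM), and of 4 choroid plexus markers 1 rose, the transthyretin gene Ttr (1.79 ± 0.13), with the sum of the 4 at 18.2 and 21.8 against 48.6 and 50.3 CPM. Macrophage markers summed to between 29.8 and 37.7 CPM (1 of 5 rose and 1 fell) and muscle markers to at most 1.08 CPM. No marker of these lists was at 0 in every total RNA library. The part of these shifts in the NFI differences was not tested.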

How the data were processed

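The deposited values are raw read counts for each gene, 1 table for total and 1 for polysomal RNA. Per the submitters' processing notes, the tools included TopHat, HTSeq and FastQC and the builds mm9, mm10 and GRCm38, with no version or role. Libraries were made with a strand-specific kit, per the labels' protocols; the sources used here do not give the annotation, strand setting or treatment of multi-mapping reads.

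Genes were tested with edgeR 4.0.16 in R 4.3.3 (quasi-likelihood test, TMM scaling, filterByExpr, Benjamini-Hochberg over all genes tested, threshold 0.05). Genotype comparisons used the 4 libraries of 1 fraction; comparisons of fractions used all 8 libraries with 4 group means, on genes in both tables. Rows whose symbols a spreadsheet had turned into dates stayed out of joins. Standard errors were obtained from the F statistic, as log2 fold change over its root. The scripts were tested on simulated data. Lengths and GC come from GENCODE M21 (GRCm38), which matched 95.6% of total and 96.5% of polysomal symbols.

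The members and lists were chosen with earlier results of these data known. Named are the 4 NFI genes, every temporal factor, the 4 largest called changes with a mean of at least 5 CPM in each other list, and the 3 genes most like each member. Alternatives were DESeq2 1.42.0, scaling by RLE or upper quartile, other filters, a replicate block, all 8 libraries in 1 fit and each library left out; GC and length adjustments (loess, span 0.5) were added after seeing the data.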

Additional observations from a re-analysis of the deposited data

Results flagged for a closer look

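For 8 named genes the genotype difference differed between polysomal and total RNA by the interaction test of edgeR over all 8 libraries, which called 89.5% of the 5768 genes tested. The differences (polysomal minus total, log2) were -1.31 ± 0.08 for Onecut2 (adjusted p = 6.17e-07), 0.48 ± 0.08 for Zfhx3 (0.000414), -0.69 ± 0.09 for Zfhx4 (8.34e-05), -0.87 ± 0.10 for Tcf4 (1.88e-05) and -0.81 ± 0.07 for Pou3f2 (4.96e-06). They were 0.42 ± 0.08 for Apcdd1 (0.00089), 0.55 ± 0.13 for Zcchc24 (0.00223) and -0.56 ± 0.14 for Bbx (0.00443). By the same edgeR test Onecut1, Onecut3, Neurod2, Zbtb20 and Slc1a3 did not pass (adjusted p = 0.222, 0.925, 0.286, 0.339 and 0.877). In that fit Tcf4, Zfhx4, Pou3f2 and Bbx were above 0 in total RNA (0.33, 0.19, 0.24 and 0.17) and below 0 in polysomal RNA (-0.55, -0.50, -0.57 and -0.38). With the GC adjustment the Onecut2 difference was -0.40 (adjusted p = 0.00626) and that of Tcf4 changed sign to 0.22 (0.0151), while Apcdd1 was at 0.58 (0.000152), and Zfhx3, Zfhx4, Pou3f2, Zcchc24 and Bbx no longer passed (adjusted p = 0.873, 0.224, 0.108, 0.0803 and 0.126).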

How the results depend on the processing

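In total RNA the NFI log2 fold changes kept their sign under all 13 alternatives (12 for Nfib, which the fit over both tables does not hold), ranging from 0.93 to 1.05 for Nfia, 0.86 to 0.99 for Nfib, 0.61 to 0.76 for Nfic and 1.32 to 1.56 for Nfix. In polysomal RNA they ranged from 0.25 to 1.38, from -0.04 to 1.09 and from 1.46 to 2.58 for Nfia, Nfic and Nfix; RLE scaling moved the median of all polysomal genes from -0.35 to -0.11. The GC adjustment changed the sign of Nfic (-0.039 ± 0.15), Zfhx4 (0.12), Tcf4 (0.55), Pou3f2 (0.17) and Bbx (0.54) in polysomal RNA. Of these Nfic lay within its error of 0 and Zfhx4 did not pass (adjusted p = 0.165, edgeR). In the interaction the GC adjustment changed the sign of Nfia (0.34), Nfic (-0.71), Zfhx3 (-0.019), Tcf4 (0.22) and Bbx (0.33). There Zfhx3 and Bbx did not pass after it (adjusted p = 0.873 and 0.126, edgeR), so the GC adjustment left no called difference for them. The GC adjustment cut the calls in polysomal RNA from 5760 to 2819 and in the interaction from 5160 to 2529. It also shifted all genes together, moving the median from -0.35 to 0.04 in polysomal RNA and from -0.13 to 0.05 in the interaction. In total RNA edgeR called 4485 genes, DESeq2 called 2944 and the fit over all 8 libraries, which tests fewer genes, called 1283; how many of these are shared was not counted. The 689 calls between WT fractions ranged from 178 (without WT polysomal replicate 1) to 1990 (without dKO polysomal replicate 2) when 1 library was left out; a lone library is then assumed to vary like the others. With the replicate number as a block the calls were 4369 in total RNA, 5771 in polysomal RNA, 595 and 5174 between fractions in WT and dKO, and 5115 in the interaction, and no value of an NFI gene changed sign. No label says whether same-numbered libraries share material. Their deviations correlated at 0.003 to 0.039 across genes, which cannot settle this with 2 libraries in each group.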

Other observations

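Genes that overlap the NFI loci were looked up because the strand setting of the counting is not given. E130114P18Rik, on the strand opposite Nfia, shares 4 exonic bases with it with 295 and 222 total RNA counts in WT against 356 and 371 in dKO. Lyl1, opposite Nfix, shares 4 exonic bases with it with 68 and 42 counts in WT against 46 and 54 in dKO. G430095P16Rik, opposite Nfix with 137 shared exonic bases, and Gm16104, opposite Nfic with 72, have no row of their own, so reads from those stretches cannot be told apart from reads of the NFI genes if strand was not used.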
